A study of Mus musculus with 6 samples.

Results

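Cadherins are calcium-dependent adhesion proteins that hold neighbouring cells together, mostly by binding the same cadherin on the next cell. Inside the cell, the tails of the classical cadherins bind catenins, which connect the junction to actin. E-cadherin marks epithelia, and its loss together with a gain of N-cadherin is the cadherin switch known from epithelial–mesenchymal transition (EMT), a change that TGF-β1 can induce in many epithelial cells. The 10 genes examined were the type I classical cadherins Cdh1 (E-cadherin), Cdh2 (N-cadherin), Cdh3 (P-cadherin) and Cdh4 (R-cadherin), the type II members Cdh5 (VE-cadherin), Cdh6 (K-cadherin) and Cdh11 (OB-cadherin), and Cdh13, Cdh16 and Cdh17. The last 3 are cadherins but not classical ones. Cdh13 (T-cadherin) is held in the membrane by a lipid anchor and has no cytoplasmic tail, and Cdh16 (kidney-specific cadherin) and Cdh17 (liver–intestine cadherin) have a short tail.

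The genes were chosen by name, and all 10 were on the array, of 22910 genes in all. They were read by 16 of 56599 probes. Expression was compared between 3 control and 3 TGF-β1-treated cultures of 2D-MAOs, which are mouse airway epithelial organoids plated as a flat layer. The cells came from lung airway epithelium of C57BL/6 mice. TGF-β1 was given or withheld from day 3 in medium that lacked noggin, an inhibitor of BMPs, and A83-01, an inhibitor of TGF-β receptor kinases. All cultures were collected on day 7, and no age, genotype or TGF-β1 concentration was given for the array cultures. The methods call the cultures biological replicates without saying whether they came from different mice, so that p-values measure the spread between these cultures.

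Each culture was measured on 1 single-colour array. Values are log2 spot intensities after quantile normalisation, in which each unit is a doubling, and differences are TGF-β1 minus control. Probes have their own brightness, so that no gene's level is compared with that of another gene. A gene was tested when a probe was well above background, as marked by the image software, on at least 3 of the 6 arrays. It was called a DEG at a limma Benjamini-Hochberg adjusted p under 0.05 over all 14345 genes tested and a change of 2-fold or more. TGF-β1 replicate 3 stood apart from the other treated arrays, at Euclidean distances of 61.1 and 62.3 from them over all genes tested, against 54.4 to 60.9 from the controls. Results are therefore also given without it. RNA of whole cultures cannot separate fewer cells of a type from less RNA per cell.

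Of the 10 cadherin genes, 7 were tested. Cdh4, Cdh5 and Cdh17 were not well above background on any array, on any of their probes. Of the 7, 1 was called, Cdh6, which was higher after TGF-β1. Among all genes tested, 1.38% were called, 1.19% as higher and 0.188% as lower. No cadherin gene was called lower by limma (0 genes), 0 were lower at an unadjusted p under 0.05, and the methods' t-test with a 2-fold limit called 0 lower as well. Cdh3 and Cdh6 were the 2 genes with higher values at an unadjusted limma p under 0.05, which 22.2% of all genes tested had in either direction. The estimate was above 0 in 5 of the 7 genes, as in 45.8% of all genes tested. In 2 of the 7, again Cdh3 and Cdh6, every TGF-β1 array was above every control array, as in 12.9% of all genes tested. In 0 of the 7 was every TGF-β1 array below every control array, against 13.5% of all genes. The median log2 fold change of the 7 genes was 0.09, beside -0.03 over all genes tested.

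**Figure D1:**
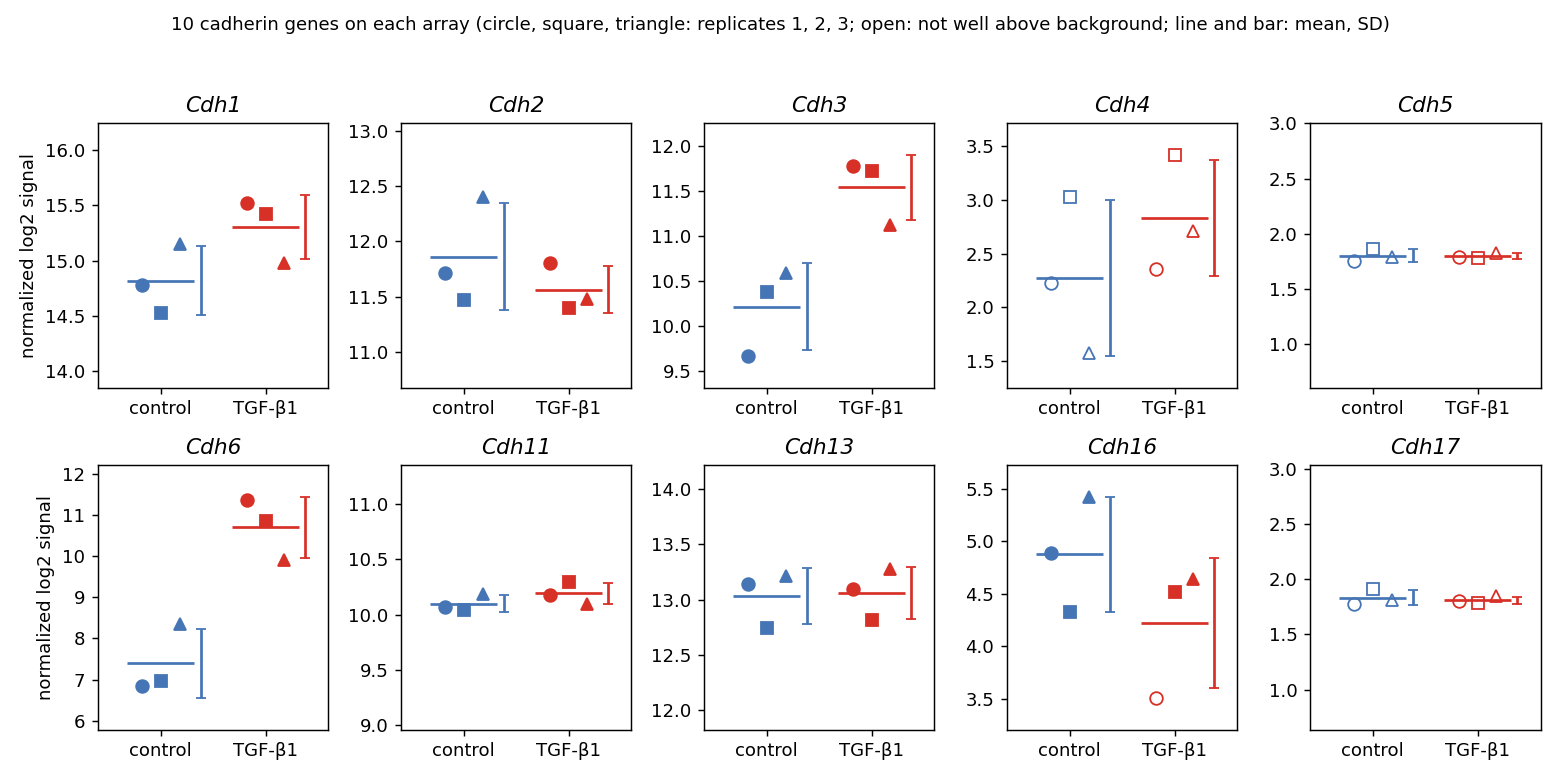
Normalised log2 signal (y axis, each panel with its own range) of the 10 cadherin genes in the 3 control (blue) and 3 TGF-β1 (red) cultures, from the brightest probe of each gene. Circles, squares and triangles are replicates 1, 2 and 3, open symbols are not well above background, lines are group means and bars SD. The groups are separate in Cdh3 and Cdh6 and overlap in Cdh1, Cdh2, Cdh11, Cdh13 and Cdh16.

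Cdh1 encodes E-cadherin, the main cadherin of epithelial adherens junctions. Its log2 signal in control replicates 1, 2 and 3 was 14.78, 14.53 and 15.15, and after TGF-β1 it was 15.52, 15.42 and 14.98. TGF-β1 replicates 1 and 2 were above all controls, whereas replicate 3 was below control replicate 3, so that the groups overlapped. The group means were 14.82 ± 0.31 and 15.31 ± 0.29 (SD, n = 3 each). Their difference was 0.49 in log2 units (SE 0.21), with a 95% interval of -0.01 to 0.99 and an adjusted p of 0.23 in limma. In an exact two-sided permutation test over the 6 arrays p was 0.2, where a comparison of 3 with 3 cannot give less than 0.1. Leaving out TGF-β1 replicate 3 gave 0.65 (limma adjusted p = 0.0706), and scaling each array to its 75th percentile in place of quantiles gave 0.23. With weights for the quality of each array the estimate was 0.70 (limma adjusted p = 0.0144), which is under 2-fold. Cdh1 was thus not called in either direction, and its estimate with all 6 arrays was above 0.

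Cdh2 encodes N-cadherin, found on neurons and on many mesenchymal cells. It had log2 signals of 11.72, 11.47 and 12.40 in the controls and 11.80, 11.40 and 11.48 after TGF-β1. Control replicate 3 was the highest of all arrays, and the other 5 lay between 11.40 and 11.80. The group means were 11.86 ± 0.48 and 11.56 ± 0.21 (SD, n = 3 each). Cdh2 thus differed by -0.30 (SE 0.25), with a 95% interval of -0.90 to 0.30, a limma adjusted p of 0.493 and an exact permutation p of 0.6. When single arrays were dropped it ranged from -0.50, without control replicate 2, to -0.03, without control replicate 3, and was -0.26 without TGF-β1 replicate 3. The single Cdh2 probe was bright, 88.2 to 169 times its local background over the 6 arrays, so that N-cadherin RNA was measured in the control cultures as well as in the treated ones.

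The cadherin switch would appear as a fall of Cdh1 beside a rise of Cdh2, and neither estimate had that sign. On each array, the difference of Cdh2 from its control mean minus the difference of Cdh1 from its own was computed, as a description and without a test. On control arrays it lay between -0.10 and 0.21, and it was -0.76, -1.06 and -0.54 on TGF-β1 arrays 1, 2 and 3. Relative to controls, Cdh2 was therefore lower than Cdh1 on each treated array. The same quantity for Cdh6 was between -0.50 and 0.62 on control arrays and between 2.34 and 3.26 on TGF-β1 arrays. For Cdh3 it was between -0.50 and 0.46 on control arrays and between 0.75 and 0.90 on TGF-β1 arrays.

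**Figure D2:**
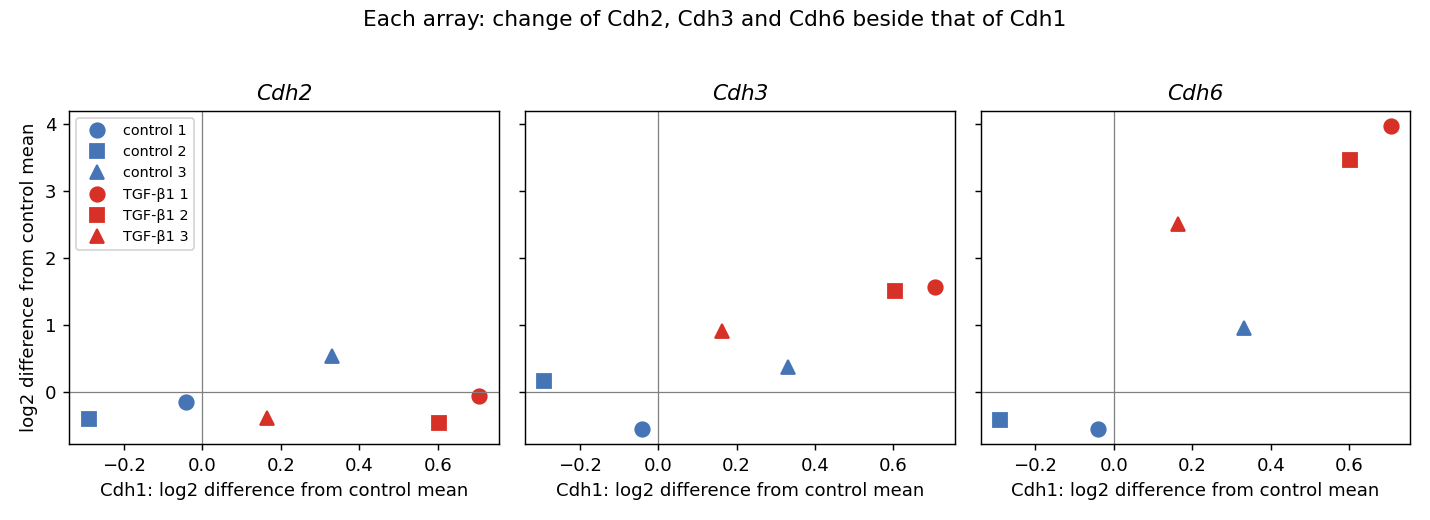
Log2 difference from the control mean of Cdh2, Cdh3 and Cdh6 (y axis) against that of Cdh1 (x axis) on each of the 6 arrays, with controls in blue and TGF-β1 in red and replicates 1, 2 and 3 as circles, squares and triangles. The 3 TGF-β1 arrays are right of 0 for Cdh1 (0.16 to 0.71), below 0 for Cdh2 (-0.46 to -0.06) and above all controls for Cdh3 and Cdh6.

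Cdh3 encodes P-cadherin, a cadherin of basal epithelial cells. Its log2 signals were 9.67, 10.38 and 10.59 in the controls and 11.78, 11.72 and 11.12 after TGF-β1. Each treated array was above each control array, and TGF-β1 replicate 3 was the lowest of the treated arrays. The group means were 10.21 ± 0.48 and 11.54 ± 0.36 (SD, n = 3 each). This was a difference of 1.33 log2 units (SE 0.28), or 2.51-fold, with a 95% interval of 0.66 to 2.00. It did not pass the adjusted threshold (limma adjusted p = 0.0736, exact permutation p = 0.1). Without TGF-β1 replicate 3 it was 1.54 and passed (limma adjusted p = 0.0223), where 4.94% of all genes tested were called and 3.86% were called higher. It also passed with normexp background (1.31, limma adjusted p = 0.0388), where 137 of the 14345 genes tested were called higher. Cdh3 and Cdh1 are neighbours on chromosome 8, with no protein-coding gene between them in the RefSeq table, and their estimates were 1.33 and 0.49. Cdh3 ranked 253 of the 14345 genes by increase. Of the basal cell keratins, Krt14 read 13.94, 14.55 and 14.79 in controls and 16.38, 16.30 and 15.25 after TGF-β1, and Krt5 read 12.68, 12.64 and 13.43 in controls and 15.17, 14.45 and 13.23 after TGF-β1. As with Cdh3, TGF-β1 replicate 3 was the lowest treated array for both. Trp63, a basal cell transcription factor, had an estimate of 0.18. The part of basal cells in the value of Cdh3 was not tested.

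Cdh4, which encodes R-cadherin of the retina and brain, had 3 probes. Their spots were 1.1 to 1.78 times their local background, and no array had any of them well above background. No fold change is given for such a gene.

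**Figure D3:**
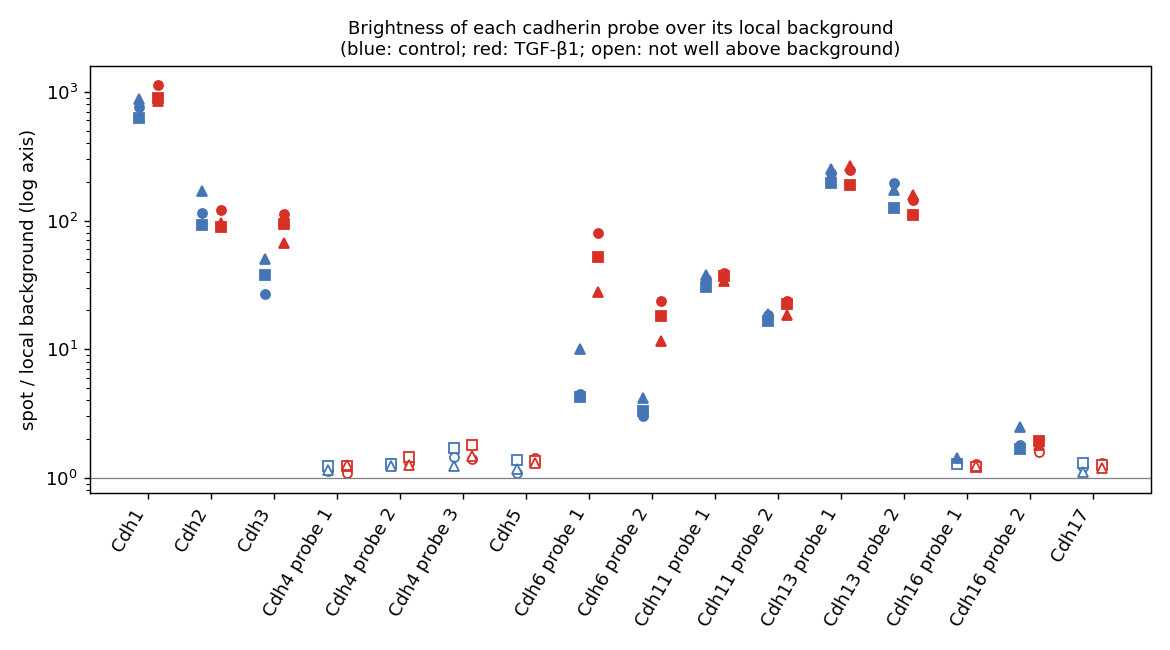
Spot brightness divided by local background (y axis, log scale) for each of the 16 cadherin probes on the 3 control (blue) and 3 TGF-β1 (red) arrays, with open symbols where a spot was not well above background. The probes of Cdh4, Cdh5 and Cdh17 lie near 1 on all 6 arrays, and both probes of Cdh6 are brighter on every TGF-β1 array than on every control array.

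Among the type II members, Cdh6 had the largest change of the cadherin genes. Cdh6 encodes K-cadherin, known from the developing kidney and the neural crest. The controls had log2 signals of 6.85, 6.98 and 8.35, and the TGF-β1 arrays had 11.36, 10.85 and 9.90. Control replicate 3 was the highest control and TGF-β1 replicate 3 the lowest treated array, and a gap of more than 1 log2 unit lay between them. The group means were 7.39 ± 0.83 and 10.70 ± 0.74 (SD, n = 3 each). Cdh6 was 9.90-fold higher, or 3.31 in log2 units (SE 0.50), with a 95% interval of 2.12 to 4.50 and a limma adjusted p of 0.0273. This placed Cdh6 at rank 25 of 14345 by increase. The exact permutation p was 0.1.

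No array fell below the detection mark for this probe. Relative to the local background its spots were 4.27 to 9.97 times as bright in controls and 27.9 to 79.6 times as bright in treated cultures. The second Cdh6 probe read 6.06, 6.42 and 6.96 in controls and 9.42, 9.26 and 8.55 after TGF-β1. It ordered the groups in the same way, with a smaller log2 difference of 2.60. With the mean of both probes the log2 fold change was 2.95 (limma adjusted p = 0.0191), and with normexp background on the first probe it was 2.81 (limma adjusted p = 0.00941).

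Both the call and the size of the Cdh6 change depended on single arrays, whereas its direction did not. When single arrays were dropped, the estimate ranged from 2.98 to 3.79. Dropping replicate 1 or 2 of the controls raised the limma adjusted p to 0.1 and 0.112, and dropping replicate 1 or 2 of the treated cultures raised it to 0.106 and 0.112. It was 0.029 and 0.00955 when replicate 3 of the controls or of the treated cultures was dropped. All 6 arrays lay on 1 slide, with both replicates 3 in slide row 2 and the others in slide row 1. Within row 1 the log2 fold change of Cdh6 was 4.19 (limma adjusted p = 0.00552), and in row 2, with 1 array a group and no test, the difference was 1.55. For Cdh3 these values were 1.73 (limma adjusted p = 0.0178) and 0.54. Cdh1 had 0.82 in row 1 (limma adjusted p = 0.0197, under 2-fold) and -0.17 in row 2, and Cdh2 had 0.01 and -0.92. Slide row and the setting apart of TGF-β1 replicate 3 cannot be told apart, since it is the only treated array in row 2.

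A RefSeq promoter sequence was matched for only 1 of the 10 genes, Cdh6, which was also the only cadherin gene called. The 250 bases before its start site (GRCm38.p6, chr15:13173676-13173925, minus strand) read 5′ to 3′ as follows, with capitals at the motif matches named next.
Cdh6: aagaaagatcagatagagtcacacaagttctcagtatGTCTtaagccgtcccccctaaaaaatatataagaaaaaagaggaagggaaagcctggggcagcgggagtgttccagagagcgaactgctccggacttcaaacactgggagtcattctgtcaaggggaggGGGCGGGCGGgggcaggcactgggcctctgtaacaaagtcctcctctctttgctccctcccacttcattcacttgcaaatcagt

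Motifs were searched on both strands. The core letters of a Smad site, GTCT, occurred 1 time, beginning 213 bases before the start, and 82.9% of the 32851 RefSeq promoter windows of this length hold them. The GC box of Sp1, GGGCGG, occurred 2 times, beginning 84 and 80 bases before the start and overlapping each other, and 32.7% of windows hold it. The letters of the longer Smad box CAGAC (in 42.2% of windows), of an AP-1 site TGANTCA (6.75%), of the E-box CAGGTG that Snail and Zeb proteins can bind (17.2%) and of a TEAD site GGAATG (12.6%) were not in this window.

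Cdh11, the gene of OB-cadherin, is known from fibroblasts and bone-forming cells. Its log2 signals were 10.07, 10.04 and 10.18 in controls and 10.18, 10.29 and 10.10 after TGF-β1. The arrays lay close together and the groups overlapped. Cdh11 differed by 0.09 log2 units (SE 0.11; limma, adjusted p = 0.619), and its 95% interval, -0.16 to 0.35, was the narrowest of the 7 genes. The second Cdh11 probe read 9.19, 9.21 and 9.26 in controls and 9.52, 9.51 and 9.29 after TGF-β1, a log2 difference of 0.22 with no overlap between the groups (exact permutation p = 0.1). Cdh5, which encodes the cadherin of endothelial junctions, stayed below the detection mark throughout, with spots 1.08 to 1.42 times their local background.

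Cdh13 encodes T-cadherin, a receptor for adiponectin. Its log2 signals of 13.14, 12.75 and 13.21 in controls and 13.09, 12.81 and 13.28 after TGF-β1 covered the same range. Their means differed by 0.03 log2 units (95% interval -0.39 to 0.45, SE 0.18, adjusted p = 0.933 in limma). Its second probe differed by -0.11, and the sign of this near-zero value also turned under scaling to the 75th percentile (-0.15) and without TGF-β1 replicate 3 (-0.08).

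Cdh16, the gene of the kidney-specific cadherin, was faint. Its brighter probe read 4.89, 4.32 and 5.41 in controls and 3.51, 4.51 and 4.64 after TGF-β1, and on TGF-β1 replicate 1 it was not well above background. The spots were 1.59 to 2.47 times their local background over the 6 arrays. Its estimate was -0.66 log2 units (95% interval -1.55 to 0.24, SE 0.38, adjusted p = 0.333 in limma), and with normexp background it was -0.16. Its second probe was well above background on 1 array, control replicate 3. Cdh17, the gene of the liver–intestine cadherin, stayed below the detection mark on every array, with spots 1.12 to 1.31 times their local background.

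**Figure D4:**
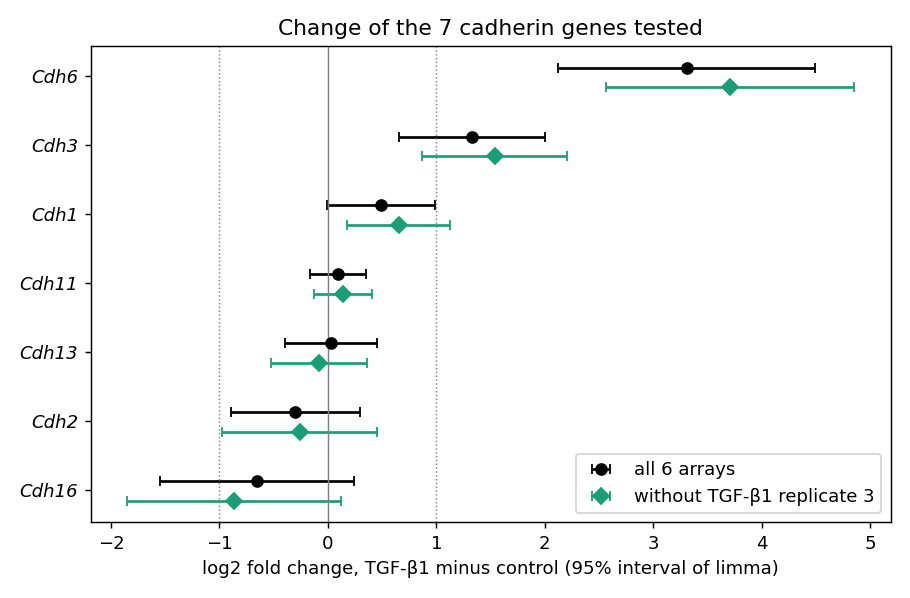
Log2 fold change (x axis, TGF-β1 minus control) of the 7 cadherin genes tested, with 95% intervals from limma, over all 6 arrays (black) and without TGF-β1 replicate 3 (green); dotted lines mark a 2-fold change. The intervals of Cdh3 and Cdh6 lie above 0 in both, those of Cdh2, Cdh11, Cdh13 and Cdh16 include 0 in both, and that of Cdh1 includes 0 with all arrays but not without TGF-β1 replicate 3, where its adjusted p was 0.0706.

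For Cdh1, Cdh2 and Cdh6, the genes with the most similar values were sought, as the smallest root-mean-square difference over the 6 arrays after centring each gene on its mean. This is a description of 6 arrays without a test. Nearest to Cdh6 were Pla2g7, which encodes a secreted phospholipase (0.20 log2 units) and was well above background on only 1 control array, so that its control values were mostly background, Lox, which encodes the collagen cross-linking enzyme lysyl oxidase (0.26), and Fstl1 (0.35), the gene of the secreted glycoprotein follistatin-like protein 1. Like Cdh6, Lox read higher in control replicate 3 (9.64) than in controls 1 and 2 (8.85 and 8.61), and lower in TGF-β1 replicate 3 (11.61) than in replicates 1 and 2 (12.59 and 12.29). Nearest to Cdh1 were Igf2r (0.03), Chst2 (0.05) and Col4a5 (0.05), and none of these 3 passed the adjusted threshold, with limma adjusted p of 0.217, 0.203 and 0.257. Nearest to Cdh2 were Gm15350 (0.10), Enpp4 (0.12) and U2surp (0.13).

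The other genes of the cadherin superfamily were examined as a list of 42 protocadherins, Fat and Celsr cadherins, calsyntenins and further cadherins, of which 40 were on the array and 23 were tested. Of these, 14 had higher and 9 lower estimates, with a median log2 fold change of 0.24 beside -0.03 over all genes tested. None was called by limma (0 genes) or by the methods' t-test after adjustment (0 genes). Of the 23, 10 had an unadjusted limma p under 0.05, against 22.2% of all genes tested. Pcdh18, a protocadherin, read 3.17, 2.71 and 4.20 in controls and 5.59, 5.40 and 4.95 after TGF-β1. It was above background on 1 control and all 3 treated arrays, so that it passed the detection filter mainly through the group where it was high. The difference of 1.96 log2 units (SE 0.38; adjusted p = 0.0587 in limma), 2.14 without TGF-β1 replicate 3, is therefore set against control values that were mostly at background. Pcdh8 had 1.48 (SE 1.06, limma adjusted p = 0.424), with 8.76 and 8.95 on TGF-β1 arrays 1 and 2 and 5.36 on array 3, and without that array it had 2.64 (limma adjusted p = 0.0496). Fat1, a giant cadherin that regulates actin, had 0.69 (limma adjusted p = 0.177). At the other end, Pcdh9 had -0.83, Clstn3, a calsyntenin, had -0.37 and Cdhr2, a cadherin of brush-border microvilli, had -0.35, with limma adjusted p of 0.164 to 0.211. Another 13 genes of the list, among them Cdh7, Cdh9, Cdh18, Cdh19, Cdh20, Cdh22 and Cdh23, were not well above background on any array.

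Catenins and other partners of cadherins formed a list of 26 genes, of which 24 were tested. The estimates were higher in 19 and lower in 5, with a median of 0.16. None was called by limma (0 genes) or by the methods' t-test after adjustment (0 genes). Of the 24, 7 had an unadjusted limma p under 0.05, against 22.2% of all genes tested. β-catenin (Ctnnb1), which binds the cadherin tail, had an estimate of 0.08 log2 units and α-catenin (Ctnna1), which binds actin, had 0.08, with limma adjusted p of 0.689 for both. Plakoglobin (Jup) had 0.03 (limma adjusted p = 0.872). p120-catenin (Ctnnd1), which keeps cadherins at the membrane, read 14.25, 14.26 and 14.28 in controls and 14.81, 14.76 and 14.48 after TGF-β1. It differed by 0.42 log2 units with no overlap between the groups (limma adjusted p = 0.132). The largest estimates were those of Fgfr1, a growth factor receptor that can bind N-cadherin, with 1.48, Nectin1 with 0.81 and Nectin4 with 0.73 (limma adjusted p = 0.151, 0.106 and 0.167). Without TGF-β1 replicate 3 these were 1.92, 1.01 and 1.03, and all 3 were called, where 3.86% of all genes tested were called higher. The lowest estimates were those of Nectin3 (-0.26), Pkp4 (-0.15) and Ctnna2 (-0.15), with limma adjusted p of 0.548 to 0.649.

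Genes that cut, internalise or recycle cadherins formed a list of 19, of which 18 were on the array and 15 were tested. None was called by limma (0 genes) or by the methods' t-test after adjustment (0 genes). Of the 15, 2 had an unadjusted limma p under 0.05, against 22.2% of all genes tested. The estimates were higher in 11 and lower in 4, with a median of 0.21. The largest estimates were those of Adam10, which sheds the outer part of E-cadherin and N-cadherin (0.45), the membrane-bound metalloproteinase Mmp14 (0.42) and Adam15 (0.42), and the lowest were those of Pip5k1c (-0.43), Arf6 (-0.35) and Rab11a (-0.22), with limma adjusted p of 0.263 to 0.335 for these 6. Mmp9 was well above background on none of the arrays.

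Transcription factors known to repress Cdh1, with their cofactors, formed a list of 14 genes. Of these, 6 were not well above background on any array, namely Snai1, Snai3, Twist1, Twist2, Foxc2 and Gsc, and 7 were tested. The estimates were higher in 6 and lower in 1, with a median of 0.31. None was called by limma (0 genes) or by the methods' t-test after adjustment (0 genes). Of the 7, 1, Snai2, had an unadjusted limma p under 0.05, against 22.2% of all genes tested. Snai2, a zinc-finger repressor also known from basal cells, read 7.96, 8.24 and 7.93 in controls and 9.24, 8.69 and 8.25 after TGF-β1, which is 0.68 log2 units (SE 0.25; adjusted p = 0.185 in limma). Klf8 had 1.21 (limma adjusted p = 0.338) but was well above background on only 1 control and 2 treated arrays. Tcf4 had 0.33 and Ctbp1 -0.06 (limma adjusted p = 0.24 and 0.766). Zeb1 was faint, with 0.31 (limma adjusted p = 0.502).

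Factors that keep Cdh1 and other epithelial genes on formed a list of 15 genes, of which 14 were tested, with higher estimates in 3 and lower in 11 and a median of -0.20. None was called by limma (0 genes) or by the methods' t-test after adjustment (0 genes). Of the 14, 5 had an unadjusted limma p under 0.05, against 22.2% of all genes tested. In 7 of the 14 every TGF-β1 array was below every control array, against 13.5% of all genes tested, and in 1 every TGF-β1 array was above. In the other lists, groups did not overlap and were higher in 3 of 7 repressors, 6 of 24 partners, 2 of 15 genes of cleavage and turnover and 2 of 23 other cadherins. This compares with 12.9% of all genes tested. They were lower without overlap in 0, 1, 1 and 3 of these genes. Elf3, an epithelial ETS factor, had -0.94 (SE 0.29, limma adjusted p = 0.152), and without TGF-β1 replicate 3 it had -1.17 and was called (limma adjusted p = 0.04), where 1.09% of all genes were called lower. Ovol1 had -0.74 and Grhl1 -0.37 (limma adjusted p = 0.115 and 0.119). Grhl3 had 0.49, Esrp1 0.09 and Grhl2, a direct activator of Cdh1, 0.01 (limma adjusted p = 0.176, 0.645 and 0.982). These counts of directions moved with the scaling, except for the repressors. With each array scaled to its 75th percentile, estimates were higher in 18 of 23 other cadherins, 14 of 24 partners, 8 of 15 genes of cleavage and turnover, 6 of 7 repressors and 1 of 14 activators. Over all genes tested, this scaling lowered the share with higher estimates from 45.8% to 38.3% and the median from -0.03 to -0.09. The medians also moved in slide row 2, with 1 array a group and no test. There they were -0.14 for other cadherins, 0.04 for partners and -0.06 for cleavage and turnover. Repressors had 0.19, activators -0.13 and all genes tested 0.005.

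**Figure D5:**
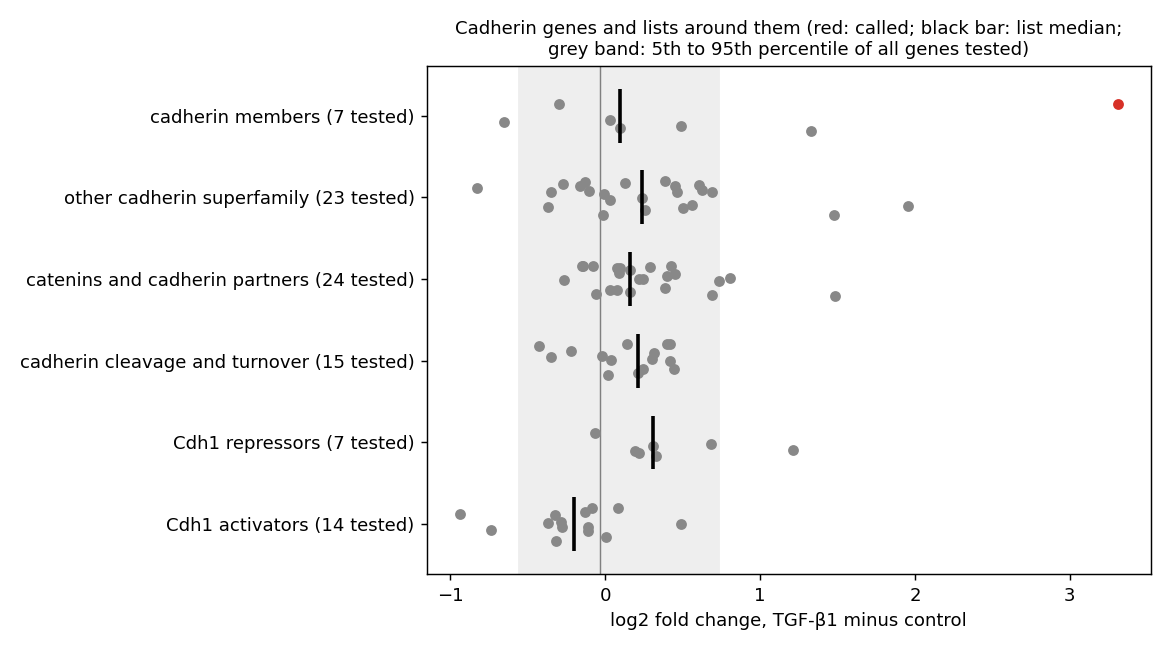
Log2 fold change (x axis, TGF-β1 minus control) of each tested gene among the cadherin members and in the 5 lists around them (y axis), with black bars at the list medians and a grey band from the 5th to the 95th percentile of all genes tested (-0.55 to 0.73). Cdh6 is the only red point, that is, the only gene called with all 6 arrays.

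Marker genes of the cell types in which these cadherins are known were read beside them. All 12 airway epithelial markers, among them Epcam, Krt5 and Foxj1, were well above background on all 6 arrays, with summed signals of 210865 to 237859 in controls and 244545 to 370441 after TGF-β1. They did not move together. Foxj1, the master regulator of ciliated cells, was called higher at 1.47 log2 units (limma adjusted p = 0.00238). The basal cell keratins Krt14 and Krt5 had estimates of 1.55 and 1.37, and the club cell secretory gene Scgb1a1 had -2.27, none past the threshold (limma adjusted p = 0.0859, 0.179 and 0.158). Scgb3a2, another airway secretory gene of the list, went the other way. It had 1.05, with every treated array above every control array (limma adjusted p = 0.117). Of 12 endothelial markers, 4 were well above background on all 6 arrays and 5 on none (Kdr, Tek, Tie1, Cldn5 and Emcn), with sums of 851 to 911 in controls and 991 to 1475 after TGF-β1. Flt1, which encodes a VEGF receptor, was detected on all 6 arrays and called higher at 1.72 log2 units (limma adjusted p = 0.00316). The others detected on all 6 arrays did not follow it. Egfl7 had 0.47, Pecam1 0.13 and Esam -0.19, with overlapping groups (limma adjusted p = 0.223, 0.505 and 0.388). Of 12 fibroblast markers, Pdgfra, Dcn and Thy1 were well above background on all 6 arrays and 7 on none (Pdgfrb, Col3a1, Lum, Tcf21, Twist2, Dpt and Meox2). Their summed signal was 660, 592 and 647 on control arrays 1, 2 and 3 and 2721, 1222 and 720 on TGF-β1 arrays 1, 2 and 3. Dcn, the gene of decorin and the brightest of them, gave 2191, 823 and 506 of the sum on the treated arrays. Among these arrays, Cdh6 and this sum were both highest on array 1 and lowest on array 3, whereas control array 3 had the highest Cdh6 signal but not the highest sum among controls. This order of the treated arrays was not particular to the fibroblast sum. The airway epithelial (370441, 356781 and 244545), endothelial (1475, 1299 and 991) and smooth muscle and pericyte sums (24493, 22285 and 15447) had it too. The mesothelial and leukocyte sums had other orders. Col1a1 and Col1a2 were well above background on 0 of 3 control and all 3 treated arrays, and were at least 2.59-fold and at least 2.38-fold higher. They passed the detection filter through the treated arrays alone, so that their calls are not given as support.

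Of 8 smooth muscle and pericyte markers, Myh11, Des and Myocd were not well above background on any array, and Cnn1 was called higher (log2 fold change 2.13, limma adjusted p = 0.0231), with sums of 14551 to 19688 in controls and 15447 to 24493 after TGF-β1. Acta2, the brightest of these markers, had 0.02 log2 units, Cspg4 had -0.01 and Notch3 had 0.94. Their groups overlapped (limma adjusted p = 0.96, 0.988 and 0.222). Of 6 mesothelial markers, Wt1, Upk3b and Lrrn4 were not well above background on any array, and sums, most of which came from Msln, were 170040 to 190564 in controls and 160496 to 189128 after TGF-β1. Upk1b, a uroplakin, had -1.22 log2 units, with every treated array below every control array (limma adjusted p = 0.0849). Of 10 leukocyte markers, Ptprc and 4 others were not well above background on any array, and sums were 10584 to 12300 in controls and 13578 to 14764 after TGF-β1. The part of other cell types in the change of Cdh6 was not tested.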

How the data were processed

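RNA of 6 cultures was hybridised to the Agilent mouse 8×60K design with Cy3. The authors deposited the spot intensity that Agilent Feature Extraction 11.0.1.1 gave after background subtraction, on a linear scale and without normalisation between arrays. Control spots and spots marked as uneven or outliers were left out, spots of a probe were averaged, and log2 values were quantile-normalised. The files name probes by accession. Of 35883 probes with a RefSeq accession, 32991 received a symbol from the RefSeq table of GRCm38.p6. The array was annotated on an older assembly, so positions of probes are not given. A gene was represented by its brightest probe among the 32460 that passed the detection filter. Groups were compared with limma 3.58.1 in R 4.3.3 without covariates.

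No transcript spot was saturated (0 spots), and the number of arrays limits the precision. A bound ("at least") sets the bright group against the lowest signal that was well above background on each dim array. The methods of the study name an unpaired test at an unadjusted threshold, called the methods' t-test here. Named genes are the 10 cadherin genes, every called gene and the up to 3 largest changes in each direction of each pathway list, the defining markers of cell types, and the 3 genes most like Cdh1, Cdh2 and each called member. Ctnnb1, Ctnna1, Jup, Ctnnd1, Zeb1 and single marker genes given with a difference were named beyond this rule, after their values were seen. The cadherin genes and the lists were chosen with earlier results of these data known. The planned background alternative used median spot signals, since no mean was at hand. With an array left out, normalised values and probes were kept. The fit was tested on simulated data.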

Additional observations from a re-analysis of the deposited data

How the results depend on the processing

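With all 6 arrays, limma called 1 cadherin gene and 171 genes in all as higher, and 0 and 27 as lower. Cdh6 kept its direction in all alternatives run, but no cadherin gene was called without a filter (0; 49 higher and 11 lower in all; Cdh6 3.31, limma adjusted p = 0.117), with the methods' t-test after adjustment (0; 4 and 1; Cdh6 3.31, adjusted p = 0.203) and with the replicate number as a block (0; 86 higher in all; Cdh6 3.31, limma adjusted p = 0.106). Both Cdh3 and Cdh6, 2 genes, were called as higher in the settings that follow. With normexp background (Cdh3 1.31), 137 genes in all were called higher and 17 lower. An unadjusted limma p (Cdh3 1.33) called 385 and 108 in all, with 1 other cadherin and 1 partner higher. The methods' t-test unadjusted (Cdh3 1.33) called 312 and 76 in all, with 1 other cadherin higher. A trended robust prior (Cdh3 1.33, limma adjusted p = 0.0402) called 224 and 37 in all, with 1 other cadherin higher. Array weights (Cdh3 1.72) called 594 and 213 in all, with 2 other cadherins and 2 partners higher and 1 Cdh1 activator lower. Within slide row 1 (Cdh3 1.73), 627 and 234 were called in all, with 4 other cadherins and 3 partners higher. With slide row as a block, 45 genes were lower. Cdh2 turned to 0.0096 within slide row 1. In slide row 2 the differences were -0.17 for Cdh1, -0.92 for Cdh2, 0.54 for Cdh3, 1.55 for Cdh6 and -0.086 for Cdh11. Cdh13 turned to -0.15 with scaling to the 75th percentile, -0.043 with the mean of its probes, -0.030 with array weights, -0.11 without control replicate 2 and -0.08 without TGF-β1 replicate 3. The causes were not tested.

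With each array left out in turn, 0 to 2 cadherin genes were called as higher, 49 to 553 genes in all as higher and 7 to 156 as lower, 0 to 2 other cadherins and 0 to 3 partners as higher, and 0 to 1 Cdh1 activators as lower. The log2 fold changes ranged from 2.98 to 3.79 for Cdh6, 1.06 to 1.54 for Cdh3 and -0.11 to 0.15 for Cdh13. Same-numbered arrays deviated from their group means with correlations across genes of -0.01, 0.33 and -0.05, so the numbers were not taken as pairs.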
